A study of Dunaliella tertiolecta with 6 samples.

Results

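The genes of sulfate and nitrogen assimilation in the green alga Dunaliella tertiolecta were taken by symbol from the deposited annotation, as every gene whose name has the stem APSR, SIR, GSF, GSN, GLN, NII, NIT or AMT followed by a number and an optional copy letter, with a mean of at least 1 FPKM over all libraries. FPKM is the fragment number scaled by transcript length and by the mapped reads of the library. The rule found 13 genes, and 13 of 13 passed the limit, among 11273 genes of the table that did so. They are 1 gene for adenosine 5′-phosphosulfate reductase (APSR1), 2 named for sulfite reductase (SIR1 and SIR3), 1 for nitrite reductase (NII1), 1 for ferredoxin-dependent glutamate synthase (GSF1), 2 for glutamine synthetase (GLN1 and GLN2), 4 for ammonium transporters (AMT1A, AMT1B, AMT1C and AMT1E), and NIT2 and NIT3. The stem GSN, used for NADH-dependent glutamate synthase, matched 0 genes. The rule does not cover nitrate reductase, whose genes carry the name NIA in this annotation.

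Poly(A)-selected RNA came from wild-type vegetative cells of UTEX LB 999, a strain of this single-celled alga, which has no cell wall. The 3 libraries at 0 µM added iron and the 3 at 1.5 µM added iron came from triplicate flasks. Both groups grew with 2 M NaCl at 24 °C in constant light, so the high salt is common to them. The titles and the time label of all 6 samples give 2 d, while the growth protocol gives 3 days. Nothing in the labels says that the flasks had separate precultures, so a p-value here reflects only how far these flasks differed.

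Sulfate enters the cell, is activated with ATP, and is reduced to sulfite by adenosine 5′-phosphosulfate reductase and then to sulfide by sulfite reductase, before it is built into cysteine and methionine. Nitrate is reduced to nitrite by nitrate reductase and to ammonium by nitrite reductase, and the ammonium is bound by glutamine synthetase and glutamate synthase. Several of these enzymes carry iron. Plant-type adenosine 5′-phosphosulfate reductase holds an iron-sulfur cluster, sulfite and nitrite reductase hold siroheme and an iron-sulfur cluster and draw electrons from ferredoxin in plastids, and glutamate synthase holds an iron-sulfur cluster. Glutamine synthetase works with magnesium, and ammonium transporters need no iron cofactor. By these textbook properties 5 members were classed as iron-dependent (APSR1, SIR1, SIR3, NII1, GSF1) and 6 as iron-free (both GLN and 4 AMT genes). NIT2 and NIT3 were put in neither class, since NIT2 of Chlamydomonas is a transcription factor for nitrate genes.

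Per library the FPKM sum was 808592 to 898151 at 0 µM and 982304 to 1021470 at 1.5 µM, and 12253 to 12509 genes were detected. No read totals were used here. Low values times coding length clustered on steps, and the fullest bin held 7.27% to 13.4% of them, against 0.216% for evenly spread values. If a step is 1 read, the depths range from 10200000 to 20300000 reads, and the weakest member value rests on about 157 reads. The markers of photosynthetic cells, RBCS, LHCB and LHCBM, were high in every library except LHCB7, which had 13.1 to 18.8 FPKM. Their summed levels were 38748 to 43761 FPKM at 0 µM and 84916 to 92475 FPKM at 1.5 µM. Of these 11 genes 10 fell at 0 µM (limma adjusted p under 0.05), where 18.7% of all tested genes were called lower and 11.6% higher. LHCB7 did not pass (log2 fold change 0.13, limma adjusted p = 0.473). The part of these markers in the results below was not tested. The gamete and zygote genes HAP2 and GEX1 summed to 0.168 to 0.182 FPKM at 0 µM and 0.0830 to 0.354 FPKM at 1.5 µM, and GEX1 was listed at 0 in the 3 libraries at 0 µM.

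The comparison of 0 with 1.5 µM added iron asked how the assimilation genes differ when no iron is supplied, and whether genes of enzymes with an iron cofactor differ from the rest. Without added iron 7 of the 13 members fell, and 0 rose (limma adjusted p under 0.05; 8 lower and 0 higher at an unadjusted p under 0.05). Over all 11273 tested genes 18.7% were called lower and 11.6% higher, 30.2% in all. At an unadjusted limma p under 0.05, 2811 of them were lower and 1950 higher. In 7 members the libraries of the groups did not overlap, all with the lower values at 0 µM; over all tested genes this held for 47.5%, with 28% lower and 19.6% higher at 0 µM. In 6 members the called fall was at least 2-fold, as for 3.13% of all tested genes, while 1.9% were called at least 2-fold higher. The split of all calls depends on scaling: 1303 genes were higher and 2105 lower as deposited, against 3188 higher and 1087 lower with FPKM sums set equal, and the same 7 members were called lower either way. APSR1 fell by far the most of the members, to 8.68% of its level with iron, and SIR1, GSF1 and NII1 fell to 39.8%, 39.6% and 40.5%. GLN2, AMT1A and AMT1E, of the iron-free class, fell to 48.2%, 49.6% and 50.7%. The members' median log2 fold change was -0.92, against -0.03 for all tested genes. Each fold change here is the value at 0 µM over that at 1.5 µM on the log2(FPKM + 1) scale. FPKM is a share of each library's RNA, so in these bulk samples fewer cells of a kind and less RNA per cell cannot be told apart.

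**Figure D1:**
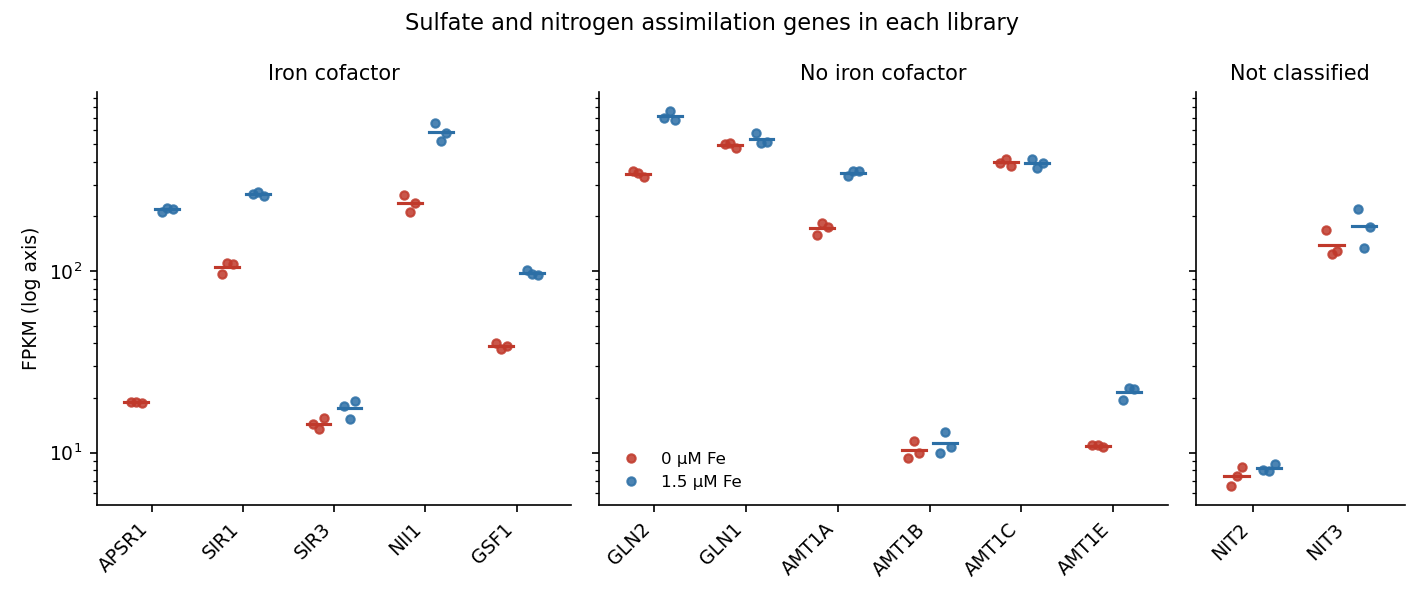
FPKM of each of the 13 members on a log axis, with 1 point per library and a line at the mean of the 3 libraries, at 0 µM (red, left) and 1.5 µM added iron (blue, right). APSR1 has the widest gap between groups, while AMT1C lies at 382 to 415 FPKM at 0 µM and at 371 to 415 FPKM at 1.5 µM.

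APSR1 (Dte_g03005) lies on scaffold_12 from 6449529 to 6454654 of the authors' assembly, on the plus strand, with 10 exons. It had 19.0, 19.1 and 18.8 FPKM at 0 µM, against 212, 223 and 221 FPKM at 1.5 µM. The groups lay far apart, and the libraries of each group were nearly equal, with coefficients of variation of 1.00% at 0 µM and 2.73% at 1.5 µM. The mean was 19.0 ± 0.191 FPKM at 0 µM and 219 ± 5.96 FPKM at 1.5 µM (SD, n = 3 each; log2 fold change -3.46, SE 0.06, limma adjusted p = 9.01e-08). By log2 fold change APSR1 ranked 15 from the lowest among the 11273 tested genes.

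SIR1 (Dte_g03358, scaffold_10, 4075984 to 4082433, minus strand, 11 exons) encodes the sulfite reductase with the higher transcript level of the pair. It had 96.9, 111 and 109 FPKM at 0 µM, against 266, 274 and 258 FPKM at 1.5 µM. The groups did not overlap, and the mean fell to 106 ± 7.82 FPKM, against 266 ± 8.07 FPKM (SD, n = 3 each; log2 fold change -1.32, SE 0.07, limma adjusted p = 1.68e-05). SIR3 (Dte_g01853, scaffold_11, 5961303 to 5978802) was much lower, at 14.4, 13.5 and 15.4 FPKM at 0 µM and 18.1, 15.4 and 19.2 FPKM at 1.5 µM. Its groups touched, since 1.5 µM replicate 2 was as low as the highest library at 0 µM, and it did not pass (log2 fold change -0.26, 95% interval -0.50 to -0.02, limma adjusted p = 0.0931). With the replicate as a block SIR3 passed (limma adjusted p = 0.0430), as it did without 1.5 µM replicate 2 (0.0356), and with FPKM sums set equal the difference was -0.05 (0.801). The labels do not state that replicate numbers pair libraries. That pairing was read from the same values, so calls gained with the block, here and below, are not separate support. Whether SIR3 takes its electrons from ferredoxin is not annotated.

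The SIR1 level divided by that of SIR3 in the same library averaged 7.35 ± 0.791 at 0 µM and 15.3 ± 2.24 at 1.5 µM. The APSR1 level divided by that of SIR1 averaged 0.180 ± 0.0142 at 0 µM and 0.823 ± 0.0324 at 1.5 µM (SD, n = 3 each), so the transcript of the first reductive step was lowered more than that of the second. In both ratios the 3 libraries of one group lay wholly beyond those of the other. These are 2 of 9 within-library ratios examined, chosen after the values were seen, and a two-sided exact permutation test over 3 against 3 libraries cannot give less than p = 0.1, which both reached (adjusted over the 9 ratios, 0.1125).

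Genes for the steps before and after sulfate reduction changed less than APSR1, and in both directions. Of 9 genes for sulfate uptake and activation 2 fell and 0 rose (3 lower and 2 higher at an unadjusted p under 0.05), with a list median of -0.09. Over all tested genes 18.7% were called lower and 11.6% higher by adjusted p. At an unadjusted limma p under 0.05, 2811 of the 11273 were lower and 1950 higher. ATS1, ATP sulfurylase, which makes the substrate of APSR1, averaged 235 ± 10.2 FPKM at 0 µM and 201 ± 14.7 FPKM at 1.5 µM (log2 fold change 0.22, 95% interval 0.05 to 0.40, limma adjusted p = 0.0586). It passed as higher with the replicate as a block (limma adjusted p = 0.0282), without 1.5 µM replicate 2 (0.0316), and under median-ratio (0.0292), quantile (0.0126) and equal-sum (0.00154) scaling. The APSR1 level divided by that of ATS1 was 0.0810 ± 0.00340 at 0 µM and 1.09 ± 0.0609 at 1.5 µM (two-sided exact permutation p = 0.1, the smallest possible, and 0.1125 adjusted over the 9 ratios). That pair too was chosen after the values were seen. ATS2 (-0.09, limma adjusted p = 0.313) and APK1 for adenosine 5′-phosphosulfate kinase (0.21, limma adjusted p = 0.149) did not pass. The genes that fell were SLT5, a SAC1-like transporter (-0.58, limma adjusted p = 0.0297), and SULP2, a sulfate permease of the chloroplast in Chlamydomonas (-0.34, limma adjusted p = 0.0343). SULP2 lost its call when any 1 library other than 1.5 µM replicate 2 was left out, at adjusted p from 0.0614 to 0.0963, and SLT5 without 0 µM replicate 2 (0.0581), 1.5 µM replicate 1 (0.0769) or 1.5 µM replicate 3 (0.0894). Scaling took calls away as well, from SULP2 with median ratios (0.0704) and equal sums (-0.12, 0.380), and from SLT5 with equal sums (-0.37, 0.122); SLT5 was also lost with no filter (0.0548).

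Of 9 genes for cysteine and methionine synthesis 2 rose and 1 fell, where 11.6% of all tested genes were called higher and 18.7% lower. OASTL4, an O-acetylserine thiol-lyase, which joins sulfide to the carbon skeleton of cysteine, had 267, 251 and 227 FPKM at 0 µM, against 150, 148 and 138 FPKM at 1.5 µM. Its groups did not overlap, and it rose (log2 fold change 0.77, SE 0.08, limma adjusted p = 0.000377). METE1, the cobalamin-independent methionine synthase, had 873, 1084 and 1113 FPKM at 0 µM, against 396, 496 and 413 FPKM at 1.5 µM, and also rose (1.23, SE 0.12, limma adjusted p = 0.000302). METH1, the cobalamin-dependent methionine synthase, fell to 17.6 ± 0.879 FPKM at 0 µM, against 34.5 ± 1.44 FPKM at 1.5 µM (-0.93, SE 0.07, limma adjusted p = 0.000109). The other members of the list were between -0.19 and 0.23 and did not pass. OASTL2 passed as higher with a pseudocount of 0.1 (limma adjusted p = 0.0494), no filter (0.0451) and the 5 FPKM filter (0.0472). It also did under median-ratio (0.0330), quantile (0.0432) and equal-sum (0.00792) scaling. OASTL1 rose under median-ratio (0.0377) and equal-sum (0.00468) scaling, and SAT2 under the latter (0.0476). CGS1 fell with no filter (0.0279) and the 5 FPKM filter (0.0459). Of 4 glutathione genes, which supply the reductant of plant-type adenosine 5′-phosphosulfate reductase, 0 passed with limma and 0 had an unadjusted p under 0.05, with differences from -0.13 for GSH1 to 0.08 for GSR2. With FPKM sums set equal, GSR1 and GSR2 were 0.29 and 0.31 higher (limma adjusted p = 0.0190 and 0.00997).

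**Figure D2:**
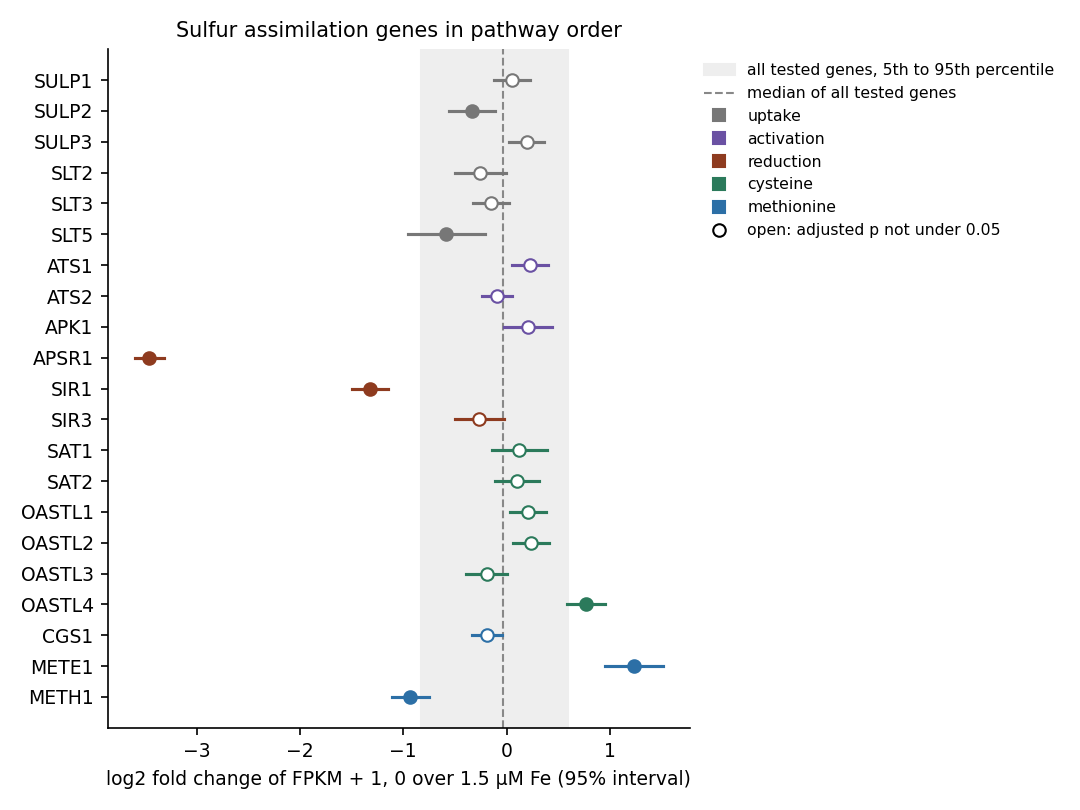
Log2 fold changes (0 over 1.5 µM added iron, on FPKM + 1) with 95% limma intervals for 21 sulfur genes in the order uptake, activation, reduction, cysteine and methionine synthesis; open points did not pass an adjusted p of 0.05, and the grey band runs from the 5th to the 95th percentile of all tested genes. APSR1 at -3.46, SIR1 at -1.32 and METH1 at -0.93 lie left of the band, and METE1 at 1.23 and OASTL4 at 0.77 lie right of it.

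NII1 (Dte_g13890) encodes the nitrite reductase of the plastid and lies on scaffold_06 from 9099341 to 9118185 on the minus strand, with 14 exons. It had 261, 213 and 237 FPKM at 0 µM, against 656, 523 and 577 FPKM at 1.5 µM. The groups did not overlap, and the spread within each was wider than for APSR1 or SIR1. The mean was 237 ± 24.4 FPKM at 0 µM and 586 ± 67.0 FPKM at 1.5 µM (SD, n = 3 each; log2 fold change -1.30, SE 0.11, limma adjusted p = 0.000127).

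NII1 stands head to head with NAR1D, named for nitrite transport, with 317 nt between the gene models, and further nitrate genes follow on the same scaffold. The stretch of 147.3 kb from NII1 to NAR2C holds 16 gene models, of which 11 were tested. All 11 had a lower mean without added iron, and 4 of them passed, namely NII1, NIA1A, HHL1 and SHKH1; with the replicate as a block 10 of the 11 passed as lower. Over all tested genes 53.8% had a lower fitted value at 0 µM, 18.7% passed as lower, and 21% did so with the block. The block rests on a pairing read from these same values, so the calls it gained are not separate support. Some of the 11 may share reads, so they do not all count separately. The unnamed Dte_g13903 and Dte_g13904 ran nearly alike, with 1028, 343 and 695 against 993, 331 and 672 FPKM at 1.5 µM. NAR2B and NAR2C also ran alike in every library. HHL1 and SHKH1, named here after their values were seen, lie between the nitrate genes (-0.79 and -0.69; limma adjusted p = 0.000122 and 0.000802). NAR1D had 172, 121 and 125 FPKM at 0 µM, against 338, 162 and 265 FPKM at 1.5 µM. Only replicate 2 at 1.5 µM reached into the range of the libraries at 0 µM, and NAR1D narrowly missed the threshold (log2 fold change -0.82, 95% interval -1.44 to -0.20, limma adjusted p = 0.0528). It passed with the replicate as a block (0.00640) and without 1.5 µM replicate 2 (0.00559).

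The nitrate reductase genes of this stretch, NIA1A and NIA1B, were added to the lists after the names were seen. Nitrate reductase, which carries heme and molybdenum, makes the substrate of NII1. NIA1B, the more abundant copy, had 194, 135 and 178 FPKM at 0 µM, against 438, 193 and 297 FPKM at 1.5 µM (-0.81, limma adjusted p = 0.0678). Its groups met only at 1.5 µM replicate 2, and it passed with the replicate as a block (0.00560) and without that library (0.00969). NIA1A averaged 32.8 ± 4.11 FPKM at 0 µM and 57.5 ± 16.8 FPKM at 1.5 µM and fell (-0.76, limma adjusted p = 0.0276). Its call was lost without 0 µM replicate 2 (0.0899) or 3 (0.0720) and without 1.5 µM replicate 3 (0.0753), and also with equal FPKM sums (-0.53, 0.0761) and with no filter (0.0547). The NII1 level divided by that of NIA1B, a pair also chosen after the values were seen, was 1.42 ± 0.136 at 0 µM and 2.05 ± 0.613 at 1.5 µM, with overlapping groups (two-sided exact permutation p = 0.2).

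**Figure D3:**
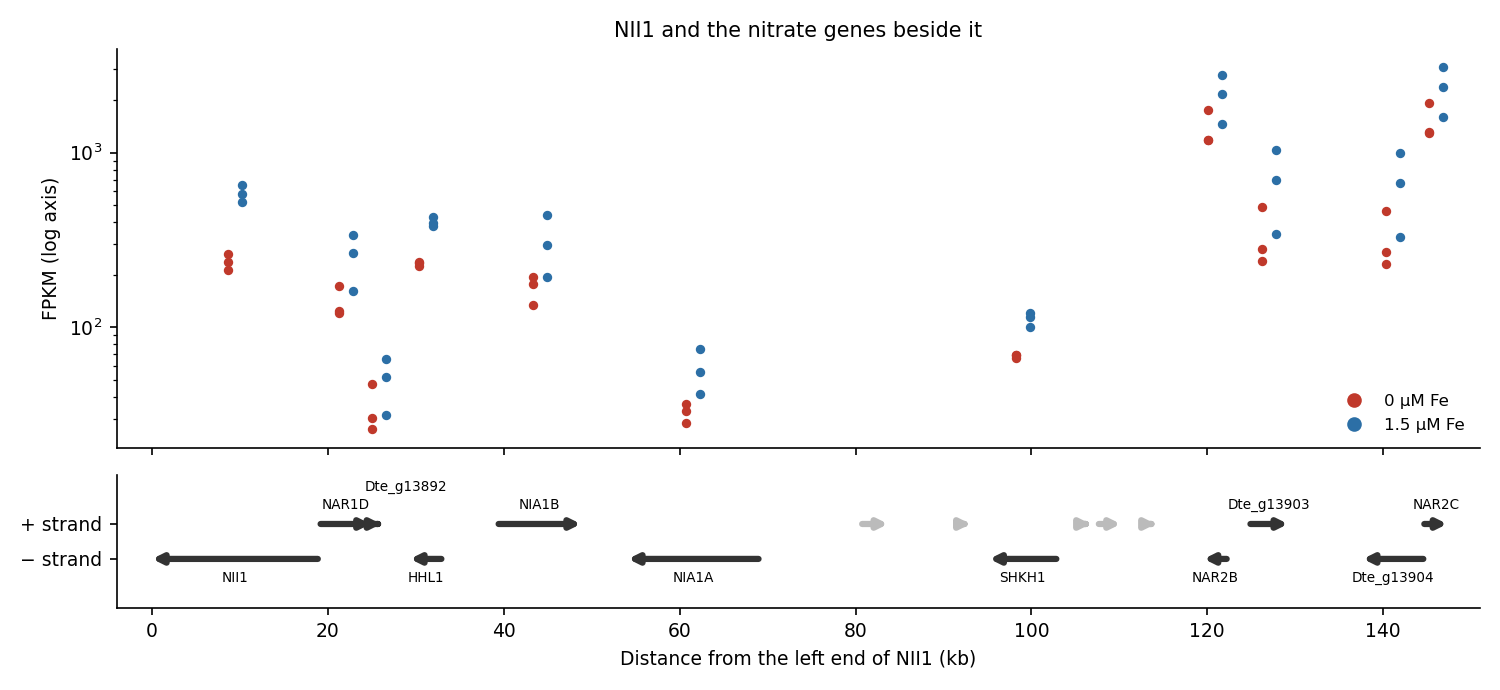
FPKM in each library (upper panel, log axis) at 0 µM (red) and 1.5 µM added iron (blue) for the 11 tested genes of the stretch from NII1 to NAR2C, placed by distance in kb, with the gene models by strand below and untested models in grey. NII1 and, of the others, HHL1, NIA1A and SHKH1 have groups that do not overlap.

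Of 10 genes for nitrate and nitrite transport 4 fell and 1 rose, with a list median of -0.61, where 18.7% of all tested genes were called lower and 11.6% higher. With the replicate as a block 8 fell and 1 rose, since NAR1C (-0.47, limma adjusted p = 0.241 without and 0.0149 with the block), NAR1D, NAR2B and NAR2C passed as well. Over all tested genes 21% were called lower with the block, and 35.2% in all. The pairing behind the block was read from these same values, so the calls gained are not separate support. NRT2A, a high-affinity nitrate transporter, fell to 183 ± 38.1 FPKM at 0 µM, against 369 ± 94.9 FPKM at 1.5 µM (limma adjusted p = 0.00980), but not with replicates 1 and 2 only (0.0990). NRT2B was lower by a like amount (-0.88, limma adjusted p = 0.0225), as were NRT1 (-0.60, limma adjusted p = 0.00106) and NAR2A, named for the partner protein of NRT2 (-0.50, limma adjusted p = 0.0214). NRT2B was not called without 0 µM replicate 2 (0.0737), 0 µM replicate 3 (0.0753) or 1.5 µM replicate 3 (0.0604), nor was NAR2A without any library other than 0 µM replicate 1 and 1.5 µM replicate 2 (0.0547 to 0.0649). NAR2A also lost its call under median-ratio (0.0516), quantile (-0.21, 0.301) and equal-sum (-0.27, 0.0934) scaling. NAR1A was the gene that rose, with 37.2, 29.0 and 32.1 FPKM at 0 µM, against 23.8, 13.6 and 18.8 FPKM at 1.5 µM (0.80, limma adjusted p = 0.0180). Without 0 µM replicate 1 (0.0623) or 3 (0.0541), or 1.5 µM replicate 3 (0.0513), it was no longer called. NAR2B and NAR2C, at 1375 and 1513 FPKM at 0 µM and 2135 and 2353 FPKM at 1.5 µM, differed between groups by -0.61 each (limma adjusted p = 0.108 for NAR2B and 0.106 for NAR2C; 0.00831 and 0.00848 with the block). They had a ratio of 1.098 to 1.105 in every library, so that reads of these copies may have been shared between them.

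NIT3 (Dte_g13115, scaffold_04, 15975710 to 15977313) had 167, 124 and 129 FPKM at 0 µM, against 220, 135 and 176 FPKM at 1.5 µM. The groups overlapped, with 0 µM replicate 1 above 1.5 µM replicate 2, and it did not pass (log2 fold change -0.32, 95% interval -0.76 to 0.12, limma adjusted p = 0.239). With the replicate as a block it did (0.0279). NIT2 (Dte_g07596, scaffold_02, 16778659 to 16795600) was the lowest member, at 6.54, 7.45 and 8.35 FPKM at 0 µM and 7.99, 7.97 and 8.64 FPKM at 1.5 µM (-0.13, 95% interval -0.37 to 0.11, limma adjusted p = 0.384). Its libraries overlapped, and no difference was detectable.

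Most of the genes named for nitrate or nitrite varied together between flasks of one group. Of the 15 genes NII1, NIT2, NIT3, NIA1A, NIA1B, 3 NRT and 7 NAR genes, 13 were highest in replicate 1 at 0 µM, where 21.3% of all tested genes were. At 1.5 µM 12 of the 15 were highest in replicate 1 and 14 were lowest in replicate 2, against 32.1% and 3946 of the 11273 tested genes. NRT1 and NIT2 were the exceptions at 0 µM, both lowest in replicate 1 and highest in replicate 3, and NRT1 kept that order at 1.5 µM. NRT1 had 15.5, 15.7 and 17.1 FPKM at 0 µM, against 23.9, 25.2 and 25.6 FPKM at 1.5 µM. Of the other 10 members 3 were highest in replicate 1 at either level. The median coefficient of variation of the 15 genes was 17.1% at 0 µM and 27.2% at 1.5 µM, against 3.98% and 6.04% for the other 10 members and 9.48% and 9.08% for all tested genes. Several nitrate genes are neighbours, so they are not independent observations.

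**Figure D4:**
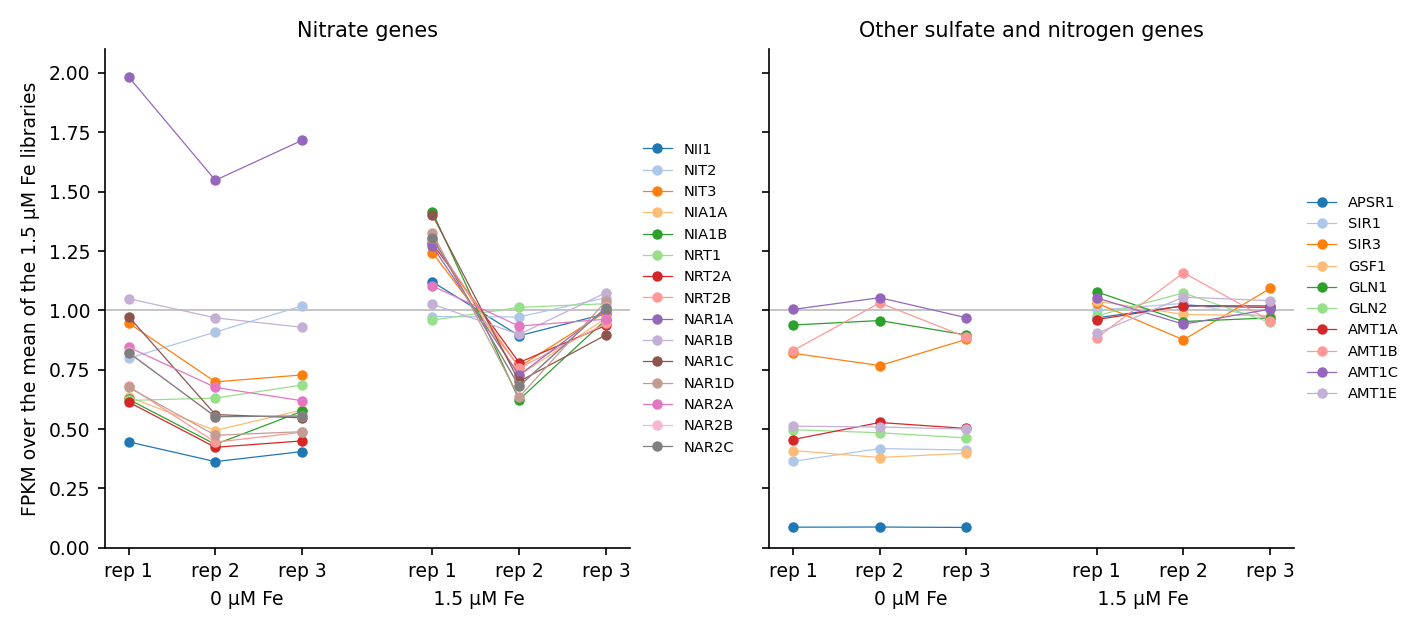
FPKM of each gene in each library divided by its mean over the 3 libraries at 1.5 µM added iron, for the 15 nitrate genes (left panel) and the other 10 members (right panel), with thin lines joining the values of 1 gene in 1 group. Replicate 1 stands highest for 13 of the nitrate genes at 0 µM and for 12 at 1.5 µM, NRT1 and NIT2 run otherwise, NAR1A lies above 1 at 0 µM, and in the other panel the libraries of most genes lie close together within a group and APSR1 stays near the bottom at 0 µM.

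Ammonium from nitrite reduction or uptake is bound by glutamine synthetase. GLN2 (Dte_g01978, scaffold_13, 247874 to 255148, minus strand, 16 exons), whose namesake in Chlamydomonas is the plastid enzyme, had 354, 345 and 330 FPKM at 0 µM, against 696, 764 and 676 FPKM at 1.5 µM. It fell without overlap of the groups (343 ± 12.5 FPKM at 0 µM and 712 ± 46.4 FPKM at 1.5 µM; SD, n = 3 each; log2 fold change -1.05, SE 0.07, limma adjusted p = 3.70e-05). GLN1 (Dte_g01277, scaffold_03, 15995668 to 16000082), named like the cytosolic enzyme of Chlamydomonas, had 500, 510 and 478 FPKM at 0 µM and 575, 508 and 516 FPKM at 1.5 µM. These groups overlapped, and GLN1 did not pass (-0.10, 95% interval -0.26 to 0.06, limma adjusted p = 0.301). The GLN2 level divided by that of GLN1 was 0.691 ± 0.0162 at 0 µM and 1.34 ± 0.149 at 1.5 µM, so GLN1 was the more abundant transcript in each library at 0 µM and GLN2 in each at 1.5 µM (two-sided exact permutation p = 0.1, the smallest possible, and 0.1125 adjusted over the 9 ratios). This pair, a called gene over one that did not pass, was chosen after the values were seen, so its p adds no support.

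GSF1 (Dte_g02543, scaffold_12, 1042498 to 1063271, minus strand, 40 exons) encodes ferredoxin-dependent glutamate synthase, which acts after glutamine synthetase. It had 40.0, 37.2 and 38.9 FPKM at 0 µM, against 101, 96.0 and 95.5 FPKM at 1.5 µM, with narrow groups far from each other. The mean fell to 38.7 ± 1.45 FPKM, against 97.7 ± 3.32 FPKM (SD, n = 3 each; log2 fold change -1.31, SE 0.07, limma adjusted p = 1.14e-05). The GSF1 level divided by that of GLN2 was 0.113 ± 0.00524 at 0 µM and 0.138 ± 0.0106 at 1.5 µM, a difference of -0.28 in log2 ratio (two-sided exact permutation p = 0.1, the smallest possible, and 0.1125 adjusted over the 9 ratios). The choice of this pair also followed a look at the values.

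The ammonium transporter genes fell into 2 that changed and 2 that did not pass. AMT1A (Dte_g12032, scaffold_04, 1013478 to 1020058) had 159, 184 and 175 FPKM at 0 µM, against 335, 355 and 355 FPKM at 1.5 µM, and fell (log2 fold change -1.01, SE 0.07, limma adjusted p = 6.46e-05). AMT1E (Dte_g12683, scaffold_04, 9466499 to 9481445), a gene of low level, had 11.0, 11.0 and 10.8 FPKM at 0 µM, against 19.5, 22.8 and 22.4 FPKM at 1.5 µM, and fell as well (-0.92, SE 0.08, limma adjusted p = 0.000220). In both genes every library at 0 µM lay below every library at 1.5 µM.

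AMT1C (Dte_g12875, scaffold_04, 12490276 to 12494218) was the most abundant of the 4, at 395, 415 and 382 FPKM at 0 µM and 415, 371 and 396 FPKM at 1.5 µM (0.01, 95% interval -0.14 to 0.17, limma adjusted p = 0.900). Scaling moved it over the threshold, since it was 0.25 higher under quantile normalization (limma adjusted p = 0.0299) and 0.24 higher with FPKM sums set equal (0.0159), where the median of all genes was 0.17. AMT1B (Dte_g04224, scaffold_16, 2366388 to 2379183) had 9.37, 11.6 and 10.004 FPKM at 0 µM and 9.97, 13.1 and 10.8 FPKM at 1.5 µM, with overlapping groups (-0.11, 95% interval -0.40 to 0.18, limma adjusted p = 0.526). The AMT1A level divided by that of AMT1C was 0.434 ± 0.0295 at 0 µM and 0.887 ± 0.0754 at 1.5 µM, and the AMT1E level divided by that of AMT1B was 1.07 ± 0.119 at 0 µM and 1.92 ± 0.170 at 1.5 µM (two-sided exact permutation p = 0.1 for each, the smallest possible, and 0.1125 adjusted over the 9 ratios). Both pairs were chosen after the values were seen, each with a called gene over one that did not pass, so their p adds no support. The 3 genes on scaffold_04 lie megabases apart, so they are not a tandem array.

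Ordered by mean level at 0 µM, the members were GLN1, AMT1C, GLN2, NII1, AMT1A, NIT3, SIR1, GSF1, APSR1, SIR3, AMT1E, AMT1B and NIT2, and of these neighbours AMT1A and NIT3, and AMT1E and AMT1B, had overlapping libraries. At 1.5 µM the order was GLN2, NII1, GLN1, AMT1C, AMT1A, SIR1, APSR1, NIT3, GSF1, AMT1E, SIR3, AMT1B and NIT2, with overlap between NII1 and GLN1 and between APSR1 and NIT3. In rank among all genes of the table, APSR1 stood at 3911 at 0 µM and at 457 at 1.5 µM.

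Set side by side, 4 of the 5 iron-dependent members fell, and SIR3 did not pass. Of the 6 iron-free members 3 fell, and GLN1, AMT1B and AMT1C did not pass. Among all tested genes 18.7% were called lower and 11.6% higher. The median log2 fold change was -1.31 for the iron-dependent members and -0.51 for the iron-free ones. FPKM summed over the iron-dependent members averaged 415 ± 19.5 at 0 µM and 1185 ± 62.6 at 1.5 µM, and over the iron-free members 1430 ± 45.9 at 0 µM and 2020 ± 38.7 at 1.5 µM (SD, n = 3 each). The 4 largest falls were of iron-dependent members, yet those of SIR1, GSF1 and NII1, from -1.30 to -1.32, had intervals that met that of GLN2 (-1.21 to -0.89), an iron-free enzyme. Only APSR1 (-3.60 to -3.31) stood clear of all other members. The members are few and were classed by known cofactors, so the difference between the classes was not tested.

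**Figure D5:**
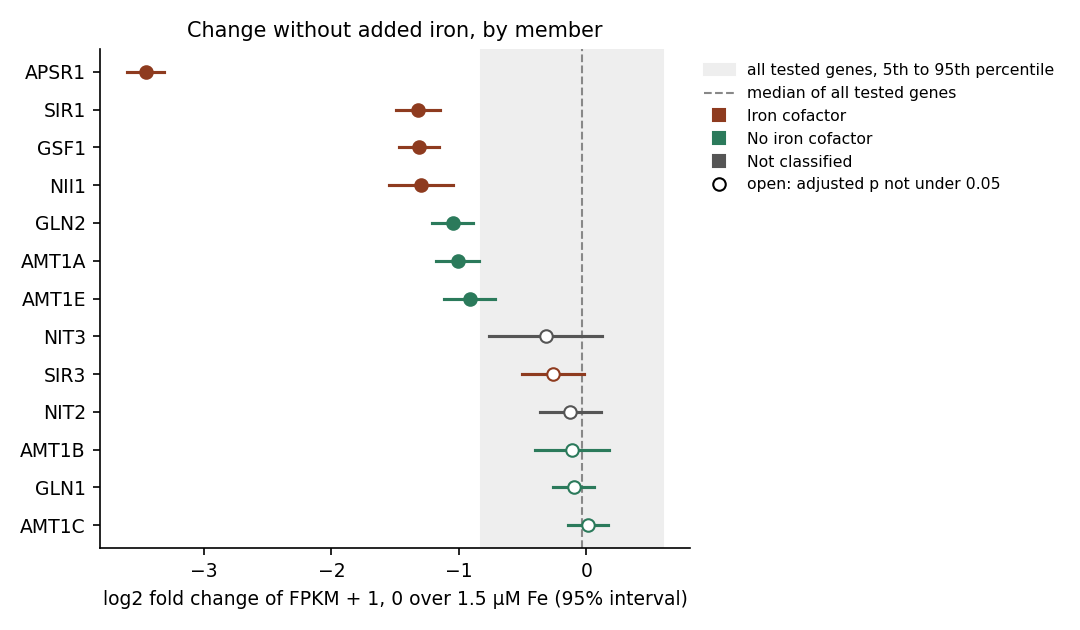
Log2 fold change (0 over 1.5 µM added iron, on FPKM + 1) of the 13 members with 95% limma intervals, coloured by cofactor class, with open points for members that did not pass and a grey band for the 5th to the 95th percentile and a dashed line for the median of all tested genes. The 4 leftmost points are iron-dependent, and SIR3, which did not pass, lies between NIT3 and NIT2, left of the iron-free members that did not pass.

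Genes beside the pathway moved in both directions, as did all tested genes, of which 18.7% were called lower and 11.6% higher. Among 9 electron donors, the FDX ferredoxins and FNR1, 7 fell and 0 rose (7 lower and 0 higher at an unadjusted p under 0.05). At that unadjusted limma threshold 2811 of the 11273 tested genes were lower and 1950 higher. FDX1A, the most abundant ferredoxin, was at 7.14% of its level with iron. FDX1B had the largest fall of all listed genes (-4.68, limma adjusted p = 4.68e-06), larger than that of APSR1. FDX4, FDX11 and FDX6 fell as well (-2.38, -2.26 and -1.16, limma adjusted p = 1.23e-05, 0.000421 and 3.16e-05). FNR1, ferredoxin-NADP reductase, one of the 7, was at -0.60 (limma adjusted p = 0.000192), but at 0.10 under quantile normalization (0.0753). FDX7 lost its call with equal sums (limma adjusted p = 0.127) and with replicates 1 and 2 only (0.0895). Of 8 cofactor genes 1 rose and 1 fell. CNX1E and CNX2, both of molybdenum cofactor synthesis, were at 0.41 and -0.48 (limma adjusted p = 0.00672 and 0.0283). The call of CNX1E was lost with replicates 1 and 2 only (0.0831), and that of CNX2 without any library other than 1.5 µM replicate 2 (0.0530 to 0.0841). CNX2 also lost it with replicates 1 and 2 only (0.175) and with equal sums (-0.26, 0.164). With equal sums CNX1G (0.46, 0.00648) and CNX6 (0.39, 0.0392) passed as higher. UPM1, which makes the siroheme precursor, was at 43.0 ± 5.75 FPKM at 0 µM and 29.3 ± 10.5 FPKM at 1.5 µM (0.59, limma adjusted p = 0.106), and passed with the replicate as a block (0.0209), without 1.5 µM replicate 1 (0.0175) and with equal sums (0.0330). SIRB1, which inserts the iron of siroheme, was at 0.04 (limma adjusted p = 0.811).

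Of 10 other genes of nitrogen metabolism 3 fell and 0 rose (6 lower and 0 higher at an unadjusted p under 0.05, limma). The shares of all tested genes were 18.7% called lower and 11.6% higher by adjusted p. At an unadjusted limma p under 0.05, 2811 of the 11273 tested genes were lower and 1950 higher. XDH1, xanthine dehydrogenase, an enzyme with molybdenum and iron-sulfur clusters, had 8.25, 8.40 and 9.48 FPKM at 0 µM, against 46.2, 44.9 and 49.4 FPKM at 1.5 µM (log2 fold change -2.30, SE 0.08, limma adjusted p = 2.37e-06). The groups were far apart. UOX1 for urate oxidase, which acts after it in purine breakdown, fell by 0.69 on the log2 scale (limma adjusted p = 0.000761), and ASN1 for asparagine synthetase fell by 0.61 (limma adjusted p = 0.000255). DUR3A, named for urea transport, was the fourth by p (-0.28, limma adjusted p = 0.0603), and passed with the replicate as a block (0.0467) and under quantile normalization (0.0445).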

How the data were processed

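Single-end reads of 50 nt were turned by the authors into the deposited FPKM table, 1 value per gene and library. STAR 2.4.0j and Cuffdiff 2.0.2 are listed in the submitters' processing notes. The deposited annotation gives coordinates on the authors' own assembly and the gene names. FPKM are not counts, so log2(FPKM + 1) of the 11273 genes with a mean of at least 1 FPKM was tested with limma 3.58.1 in R 4.3.3 (eBayes with trend, two-sided, Benjamini-Hochberg over these genes, threshold 0.05). For genes with few FPKM such fold changes come out too small. Members and lists were chosen with earlier results of these data known. All members are named. Of each other list some genes are named as context, and these are not always the ones with the smallest p. Tables and figures were made with pandas 2.3.3 and matplotlib 3.10.9 in Python 3.11.15.

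Depth is known only roughly, from steps in low values of genes of at least 400 nt coding length, full or shortened by 205 nt. Simulated data drawn from the 11273 genes held 66 changed 1.5-fold, 78 changed 2-fold and 56 changed 4-fold. Of these limma recovered 47%, 89.7% and 98.2%, with 9 false among 165 calls. Far more genes were called in the real data, so these rates need not hold there. Deviations from the group means correlated at 0.239, 0.262 and 0.168 between libraries of the same replicate number and at -0.22 to -0.0144 otherwise. Such deviations are centred in each group, so positive values at matching numbers go with negative ones elsewhere. The labels do not state that replicate numbers pair libraries. That reading comes from the same values the block was tested on, so calls gained with the block are not separate support. Alternatives were pseudocounts of 0.1 and 0.01, no filter or 5 FPKM, 3 scalings, robust eBayes, no trend, a replicate block, each library left out, and replicates 1 and 2 only. None of the members shared its values with another gene or overlapped another gene model.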

Additional observations from a re-analysis of the deposited data

How the results depend on the processing

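Over 17 alternatives, 216 of 221 member results kept their side of the threshold, and the 7 members that fell were called lower in all 17; the 5 exceptions were calls gained by SIR3 and AMT1C (2 alternatives each) and NIT3 (1). Under quantile normalization and with equal FPKM sums 1 member was higher (AMT1C). Quantile normalization gave an iron-dependent median of -1.20; equal sums gave -1.09, and -0.30 for the iron-free members. With equal sums 3188 genes were higher and 1087 lower, and the median of all genes was 0.17. Median-ratio scaling gave 1667 higher and 1898 lower, and quantile normalization 1708 and 2005. FNR1 was 0.10 higher under quantile normalization (limma adjusted p = 0.0753). With replicates 1 and 2 only, 1639 genes changed, 531 higher and 1108 lower. Leaving out 1 library gave 2340 to 3193 genes changed, 1504 to 1910 lower and 797 to 1283 higher, with the lowest counts without 0 µM replicate 2 (797) and without 1.5 µM replicate 3 (836). With the replicate as a block, 9 members changed, with SIR3 and NIT3 added, and of the 15 nitrate genes 12 were lower, against 6 without the block; calls rose over all genes too, to 1611 higher and 2362 lower, 35.2% in all against 30.2%. The cause of these shifts was not tested, and the block rests on a pairing that the labels do not state. FPKM carry no read totals, so the precision of low genes such as NIT2 and AMT1B is limited by depth that is only roughly known.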
